A study of Saccharomyces cerevisiae with 12 samples.

Results

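The hypoxic genes of the Rox1 type are a set of 9 genes that *Saccharomyces cerevisiae* uses when oxygen or heme is scarce: *ANB1*, *AAC3*, *CYC7*, *COX5B*, *HEM13*, *HEM14*, *HMG2*, *AUS1* and *SUT1*. They were chosen by name for this function, and with earlier results of these data known. All 9 were found among the 6400 named genes of the count tables. Their mRNA levels were compared across 4 strains that were grown in rich medium with glucose (YPD) and collected in log phase, with 3 biological replicates of each. The strains were BY4741 (wt), a haploid laboratory strain that lacks working *HIS3*, *LEU2*, *MET15* and *URA3* genes, and 3 mutants made in it: *tup1* (*tup1*::KAN), *cyc8* (*cyc8*::KAN) and *tup1 cyc8* (*tup1*::KAN with *cyc8*::URA3). Total RNA was depleted of rRNA and sequenced with strand information retained. Levels are given as CPM, the counts of a gene scaled by TMM to make library sizes alike, and values of 3 libraries are always in the order of replicates 1, 2 and 3. In RNA of a whole culture, a higher level in every cell and a larger share of expressing cells cannot be told apart.

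In cells with oxygen, heme is made and activates transcription of *ROX1* through the heme-responsive factor Hap1p. This describes yeast in general, and whether Hap1p works fully in BY4741 was not tested here. Rox1p, a repressor with an HMG-box DNA-binding domain, binds a short site upstream of hypoxic genes and recruits the Tup1-Cyc8 corepressor, and loss of oxygen or heme lifts this repression. Several hypoxic genes are second copies of a gene that is used in air, so a cell can exchange one isoform of a protein for another, while others act in the heme and sterol steps that consume oxygen.

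The sites upstream of the genes are shown first, since the set is named for Rox1. Its genes were chosen by function and not by these sites. The core of the Rox1 site (ATTGTT, searched on both strands) and the full Rox1 consensus of 12 bases were looked for in the 500 bases before each gene in the RefSeq R64 genome, in which the gene models of these genes begin at the start codon. All 12 bases were matched upstream of 4 of the 9 genes, *ANB1* with 2 such sites and *HEM13*, *HEM14* and *HMG2* with 1 each, and upstream of 19 of 6000 genes in the genome (0.317%). The sites below are written 5' to 3' on the strand that carries the match, with the bases that match the consensus in capitals and up to 6 flanking bases on each side.
ANB1, 284 to 273 bases before the gene: tttcgcCCTATTGTTCTCgagcct
ANB1, 217 to 206 bases before the gene: tcctatTCCATTGTTCTCtttggt
ANB1, 196 to 185 bases before the gene: ggtaaaCTCATTGTTgTCggaact
HEM13, 185 to 174 bases before the gene: gctttgCCCATTGTTCTCgtttcg
HEM14, 85 to 74 bases before the gene: aatatcTCTATTGTTCTCtctatt
HMG2, 234 to 223 bases before the gene: caacatCTTATTGTTCTCgattaa
AAC3, 145 to 134 bases before the gene: gggtttTCCATTGTcCTtttcatt
CYC7, 140 to 129 bases before the gene: ttctgaTCTAaTcTTCTCgagctt

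The *HEM14*, *HMG2* and *CYC7* sites lie on the strand opposite to their gene. A match of 11 bases, as at the third *ANB1* site, was found upstream of 4.77% of genes when 11 or more were counted, and a best match of 10 or more bases, as for *AAC3* and *CYC7*, was found for 45.3% of genes and so sets them apart little. The best matches of *COX5B*, *AUS1* and *SUT1* had 9 bases, which 98.4% of genes reach. The core alone occurred 4 times before *ANB1* (4 or more in 0.433% of genes), 3 times before *COX5B* (3 or more in 2.98%), 2 times each before *HEM13*, *HEM14*, *HMG2* and *SUT1* (2 or more in 15% of genes), once before *AAC3* and *AUS1* (48.9%), and not before *CYC7*. Of the 5 partners used in air, *HMG1* (partner of *HMG2*) had the core 2 times and *COX5A* (of *COX5B*) once, and it was not found before *HYP2*, *PET9* or *CYC1*, the partners of *ANB1*, *AAC3* and *CYC7*. In the window from 250 bases before to 50 bases after the gene start, the core was present in 7 of the 9 members (35.2% of all genes), *CYC7* and *AUS1* being without it, and the core of the sterol response element (TCGTATA, both strands) was in none of them (4.15% of all genes). A match is a description of letters and does not show binding.

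**Figure D1:**
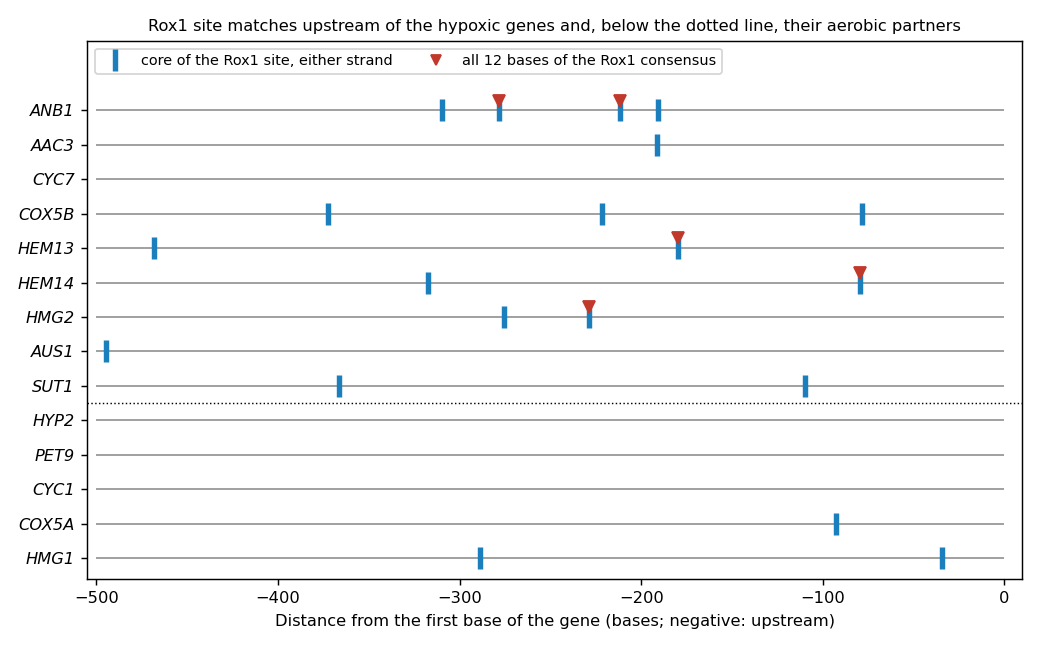
Position of Rox1 site matches in the 500 bases upstream of the 9 hypoxic genes and of their 5 aerobic partners (x axis, distance in bases from the first base of the gene). Blue bars are the core of the site on either strand and red triangles are matches to all 12 bases of the consensus, which stand before *ANB1* (2 sites), *HEM13*, *HEM14* and *HMG2* only among these 14 genes.

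Upstream regions of 300 bases are shown for 3 genes (R64, written on the strand of the gene up to its first base, core matches on either strand in capitals), since they differ in both sites and expression. *ANB1* (chrX:525382-525681, minus strand) has 3 cores in this stretch, *HMG2* (chrXII:1032327-1032626, plus strand) has 2, of which 1 is part of a full consensus, and *CYC7* (chrV:79978-80277, minus strand) has none.
ANB1: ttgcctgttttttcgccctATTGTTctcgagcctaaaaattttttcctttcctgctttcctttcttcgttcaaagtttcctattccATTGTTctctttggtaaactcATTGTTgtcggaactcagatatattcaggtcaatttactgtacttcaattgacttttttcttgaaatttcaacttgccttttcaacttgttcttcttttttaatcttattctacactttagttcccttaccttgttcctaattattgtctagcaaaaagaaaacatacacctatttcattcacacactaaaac
HMG2: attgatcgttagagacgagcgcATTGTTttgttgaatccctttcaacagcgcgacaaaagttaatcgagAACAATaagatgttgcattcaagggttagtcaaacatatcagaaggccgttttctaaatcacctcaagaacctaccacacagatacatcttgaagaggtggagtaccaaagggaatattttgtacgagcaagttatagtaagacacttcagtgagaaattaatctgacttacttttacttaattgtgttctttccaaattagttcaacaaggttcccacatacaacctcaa
CYC7: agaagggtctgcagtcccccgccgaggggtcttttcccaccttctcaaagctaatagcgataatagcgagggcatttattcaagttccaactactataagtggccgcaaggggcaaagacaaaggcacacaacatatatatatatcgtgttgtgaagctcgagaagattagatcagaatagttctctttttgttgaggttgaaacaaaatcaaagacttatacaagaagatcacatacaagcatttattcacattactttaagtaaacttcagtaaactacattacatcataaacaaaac

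Of the 3 genes printed, *ANB1* and *CYC7* had the largest increases of the set, with and without a full consensus, and *HMG2*, with one, did not pass the test in any mutant. *HEM13* and *HEM14*, the other members with a full consensus, were upregulated in *cyc8* and *tup1 cyc8*. Of the 19 genes with a full consensus, 1 was upregulated in *tup1* (*ANB1*), 5 in *cyc8* and 6 in *tup1 cyc8*. Of all genes tested, 7.27%, 12.5% and 13.9% were upregulated in these mutants. The median log2 fold changes of the 19 genes were -0.01, 0.15 and 0.12. The upregulated genes outside the set were *QCR2* and *MLO1*, in *cyc8* and in *tup1 cyc8*, and *TDA10*, in *tup1 cyc8*, which are named here because their number is small and not by a rule. *RIB4* was lower in *tup1* (-1.08), as were 1.43% of all genes tested.

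Depth and labels were examined before the genes. The libraries held 12682293 to 17910416 counts. *TUP1* was at 4.11% of its wt level in *tup1* and at 4.32% in *tup1 cyc8*, and *CYC8* was at 4.52% in *cyc8*. In the libraries labelled *tup1 cyc8*, however, *CYC8* remained at 44.7% of wt (79.3, 88.3 and 85.0 CPM against 198, 181 and 186 in wt), while *URA3* was at 48.2, 46.0 and 39.2 CPM there and at 0.157 CPM or less elsewhere. Which part of *CYC8* these reads come from was not tested, and the strain is named by its label throughout. Among the wt libraries, replicate 3 stood apart for several oxygen-regulated genes: relative to the mean of the other wt libraries it held 0.477 times the *ANB1* level, 0.496 times *HEM13* and 0.15 times *DAN1*, but 2.07 times *CYC7*, 2.24 times *COX5B* and 2.30 times *CYC1*. Its median distance from its replicates over all genes was 0.175 on the log2 scale, against 0.113 and 0.120 for the others. Replicate 1 of *cyc8* was the most distant library of all (0.261, against 0.159 and 0.157).

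Of the 9 genes, 5 were upregulated in *tup1*, 7 in the *cyc8* strain and 8 in *tup1 cyc8*, and none was downregulated in any mutant (log2 fold change of at least 1 and adjusted p of at most 0.01, edgeR's quasi-likelihood test over all genes). Over all genes tested, the same limits called 7.27% higher in *tup1*, 12.5% in the *cyc8* strain and 13.9% in *tup1 cyc8*, and 1.43%, 1.91% and 1.88% lower (8.71%, 14.4% and 15.8% in either direction). No member was lower at an unadjusted p under 0.05 (17.6%, 24.5% and 28.6% of all genes were) or by DESeq2 either. All 3 mutants had *ANB1*, *AAC3*, *CYC7*, *AUS1* and *SUT1* upregulated, as was the case for 6.65% of all genes. *HEM13* and *HEM14* were upregulated in both strains deleted for *CYC8*. In *tup1*, *HEM14* missed the fold limit alone (0.93, edgeR adjusted p = 0.00029), and its difference between *cyc8* and *tup1* (0.11) did not pass. *COX5B* passed both limits only in *tup1 cyc8* and not under every setting. DESeq2 called 6, 8 and 8 of the genes, *COX5B* being among them in each mutant. The median log2 fold change of the 9 genes was 1.19, 2.06 and 2.75 in *tup1*, *cyc8* and *tup1 cyc8*, beside a median of -0.03 for all genes in each comparison. Every library of the mutant lay above every wt library for 8 genes in *tup1* (22.0% of all genes), 8 in *cyc8* (28.4%) and 9 in *tup1 cyc8* (30.5%). Without wt replicate 3, 6, 8 and 8 of the genes were upregulated. The 3 comparisons share the same wt libraries, and the genes were chosen with earlier results of these data known.

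**Figure D2:**
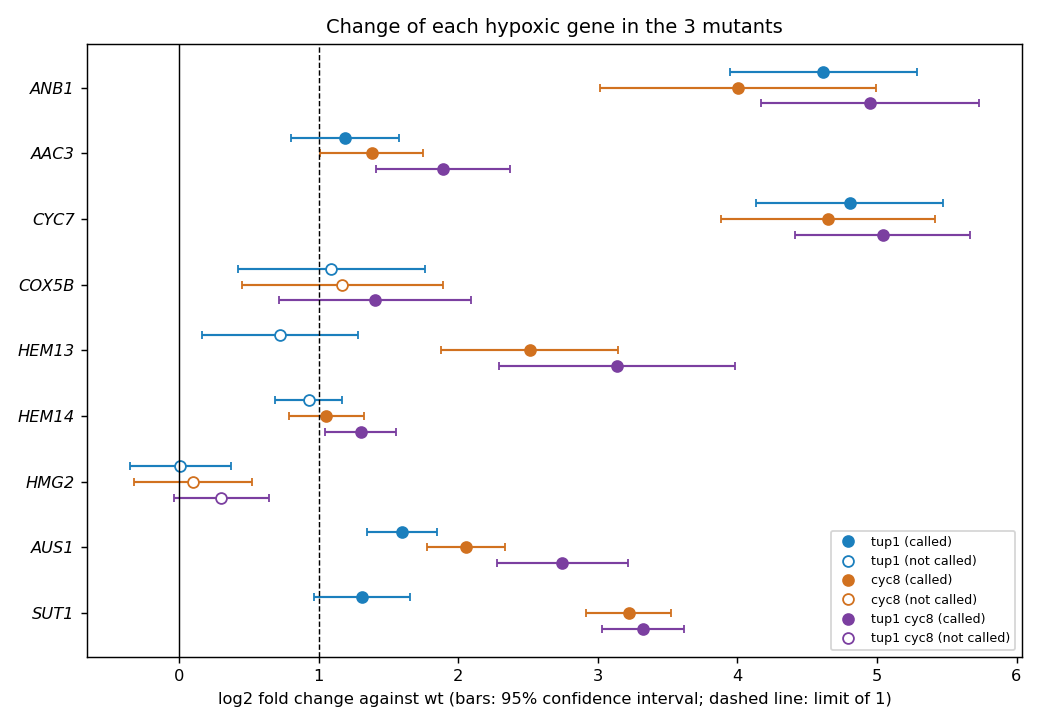
Log2 fold change of each hypoxic gene against wt in *tup1*, *cyc8* and *tup1 cyc8* (x axis; points, edgeR estimates from 3 against 3 libraries; bars, 95% confidence intervals). Filled points passed both limits, open points did not, and *HMG2* alone is open in all 3 mutants, between 0.01 and 0.30.

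The isoform genes *ANB1* and *CYC7* showed the largest de-repression. *ANB1* (YJR047C, R64 chromosome X, 524908 to 525381, minus strand, 1 coding exon) encodes the hypoxic isoform of the translation factor eIF5A. It was at 19.4, 22.1 and 9.89 CPM in wt, at 401, 391 and 485 in *tup1*, at 423, 189.7 and 211 in the *cyc8* strain and at 624, 381 and 574 in *tup1 cyc8*. No mutant library came near the wt range, and within *cyc8* replicate 1 was about level with *tup1* while the other replicates were lower. The log2 fold changes were 4.61 (SE 0.29, adjusted p = 8.1e-06) in *tup1*, 4.0 (SE 0.43, adjusted p = 0.00030) in the *cyc8* strain and 4.95 (SE 0.34, adjusted p = 1.0e-05) in *tup1 cyc8*, all from edgeR's quasi-likelihood test. Without wt replicate 3 they were 4.36, 3.73 and 4.67.

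Its aerobic partner *HYP2*, the eIF5A gene used in air, passed the test in no mutant. *HYP2* was at 1715, 1776 and 1895 CPM in wt and between 1342 and 1974 in the 9 mutant libraries, with log2 fold changes of -0.20, 0.09 and -0.24, none of which passed. Per kb of coding sequence, the counts of *HYP2* exceeded those of *ANB1* by 110.6 times in wt, 3.74 times in *tup1*, 7.41 times in the *cyc8* strain and 2.92 times in *tup1 cyc8*. The log2 ratio of *ANB1* to *HYP2* was -6.79 ± 0.69 in wt, -1.90 ± 0.17 in *tup1*, -2.89 ± 0.70 in the *cyc8* strain and -1.54 ± 0.46 in *tup1 cyc8* (SD, n = 3), a difference among strains that passed an exact permutation test (two-sided, p = 0.00052, adjusted over 5 isoform pairs p = 0.0021). The hypoxic isoform thus came to 0.267, 0.135 and 0.343 of the aerobic level in the mutants, from 0.00904 in wt. The 2 genes share 6.76% of their stretches of 31 bases, and reads from those could be assigned to neither by a count of unique hits.

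*CYC7* (YEL039C, chromosome V, 79636 to 79977, minus strand, 1 coding exon) encodes iso-2-cytochrome c. Its wt level was the lowest of the set, at 2.02, 1.17 and 3.31 CPM (36, 21 and 61 counts). The mutants held 55.3, 55.5 and 74.6 CPM (*tup1*), 43.2, 61.6 and 59.5 CPM (*cyc8*) and 73.3, 74.7 and 66.0 CPM (*tup1 cyc8*), so *tup1* overlapped both other mutants, *cyc8* lay below *tup1 cyc8*, and none overlapped wt. Their log2 fold changes were 4.80 (SE 0.29, adjusted p = 6.2e-06), 4.65 (SE 0.33, adjusted p = 3.9e-05) and 5.04 (SE 0.27, adjusted p = 2.4e-06) by the same edgeR test, and 5.27, 5.09 and 5.49 without wt replicate 3.

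*CYC1*, which encodes the iso-1-cytochrome c that predominates in air, was at 13.4, 14.5 and 32.1 CPM in wt. It was at 38.5, 46.2 and 51.2 CPM in *tup1*, 60.4, 35.9 and 37.5 in the *cyc8* strain and 64.9, 41.8 and 50.4 in *tup1 cyc8*. Every mutant library was above the wt libraries, but the change passed both limits in *tup1 cyc8* alone (log2 fold change 1.40, edgeR adjusted p = 0.0082), and in all 3 mutants once wt replicate 3 was left out (1.70, 1.68 and 1.92). The log2 ratio of *CYC7* to *CYC1* went from -3.24 ± 0.45 in wt to 0.39 ± 0.16 in *tup1*, 0.27 ± 0.70 in the *cyc8* strain and 0.42 ± 0.34 in *tup1 cyc8* (SD, n = 3; exact permutation test over the 4 strains, p = 0.017, adjusted p = 0.022). Per kb, *CYC1* was thus 9.45 times *CYC7* in wt, while in 8 of the 9 mutant libraries *CYC7* was the more abundant of the 2, the exception being *cyc8* replicate 1 with a log2 ratio of -0.53. *CYC7* and *CYC1* share 1.6% of their stretches of 31 bases. *ANB1* and *CYC1* are also neighbours, divergently transcribed with 953 bases between them, and the *ANB1* sites printed above lie in this stretch, nearer to *ANB1*.

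*COX5B* (YIL111W, chromosome IX, 155222 to 155765, plus strand, 2 coding exons) encodes subunit Vb of cytochrome c oxidase, the respiratory complex that reduces oxygen. Its CPM was 23.7, 20.7 and 49.7 in wt, 66.0, 68.7 and 68.5 in *tup1*, 71.1, 71.7 and 69.1 in the *cyc8* strain and 80.1, 88.1 and 78.8 in *tup1 cyc8*. The mutant libraries were tightly grouped and all above wt, and the spread lay in wt replicate 3. The log2 fold changes of 1.09 (SE 0.29, adjusted p = 0.027) and 1.17 (SE 0.31, adjusted p = 0.021) in *tup1* and *cyc8* did not pass in edgeR, and that in *tup1 cyc8* did (1.40, SE 0.30, adjusted p = 0.0053). The *tup1 cyc8* call was lost in 5 of the 6 fits with 1 library fewer as well as with scaling by library size alone (0.93) and in a test against a 2-fold change. The *tup1* and *cyc8* changes passed without wt replicate 3, at 1.61 and 1.67, by DESeq2, at 1.11 and 1.17, and in the fit of all 12 libraries, also at 1.11 and 1.17. In the direct comparisons *COX5B* in *tup1 cyc8* did not pass against *tup1* (0.28, 95% interval -0.24 to 0.80) or *cyc8* (0.22, -0.30 to 0.74). Without wt replicate 3 neither passed (edgeR adjusted p = 0.035 and 0.13). The *tup1 cyc8* libraries, at 78.8 CPM or more, still all lay above those of *tup1* and *cyc8*, at 71.7 or less.

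The aerobic partner *COX5A*, which encodes subunit Va, was at 81.0, 81.5 and 101.6 CPM in wt and at 128, 113.4 and 106.6 in *tup1*. It reached 251, 297 and 282 CPM in *cyc8* and 259.8, 167 and 188 in *tup1 cyc8*, with log2 fold changes of 0.38, 1.65 and 1.23, and only the last 2 of these passed. The log2 ratio of *COX5B* to *COX5A* was -1.57 ± 0.50 in wt, -0.75 ± 0.16 in *tup1*, -1.95 ± 0.13 in the *cyc8* strain and -1.27 ± 0.39 in *tup1 cyc8* (SD, n = 3; exact permutation test, p = 0.012, adjusted p = 0.019). The adjusted p was over 0.05 without *tup1* replicate 2 (0.061), *tup1* replicate 3 (0.066) or *cyc8* replicate 2 (0.0502), and ran from 0.0094 to 0.066 over all fits without 1 library. Relative to wt the log2 ratio was -0.37 in *cyc8*, or -0.09 without wt replicate 3, and 0.30 in *tup1 cyc8*, or 0.58 without it. *COX5A* stayed the more abundant isoform in every library, by 1.69 to 3.86 times on the strain means per kb.

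*AAC3* (YBR085W, chromosome II, 415983 to 416906, plus strand, 1 coding exon) encodes a mitochondrial ADP/ATP carrier. It was at 9.44, 10.5 and 7.23 CPM in wt, 19.6, 18.4 and 24.7 in *tup1*, 22.5, 22.6 and 25.5 in the *cyc8* strain and 41.0, 24.8 and 34.5 in *tup1 cyc8*. All mutant libraries were above wt, and *tup1 cyc8* replicate 2 lay within the range of the single mutants. In log2, the increase was 1.19 (SE 0.17, adjusted p = 0.0012), 1.38 (SE 0.16, adjusted p = 0.00041) and 1.89 (SE 0.21, adjusted p = 0.00017) in the edgeR test.

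*PET9*, the gene of the main carrier in air, was itself upregulated, from 138.7, 144.7 and 246 CPM in wt to 844, 733 and 673 in *cyc8* and 684, 607 and 626 in *tup1 cyc8* (log2 fold changes 2.09 and 1.87). In *tup1* it was at 289.7, 306 and 345 CPM and the change of 0.81 did not pass, or passed at 1.14 without wt replicate 3. The ratio of *AAC3* to *PET9* did not pass the test of a difference among strains (log2 -4.19 ± 0.73, -3.86 ± 0.13, -4.94 ± 0.26 and -4.23 ± 0.29 in wt, *tup1*, *cyc8* and *tup1 cyc8*, SD, n = 3; exact permutation test, p = 0.081, adjusted p = 0.081). Without wt replicate 3, the same test passed (adjusted p = 0.0038, with *cyc8* lowest; 0.0038 to 0.19 over the fits without 1 library).

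**Figure D3:**
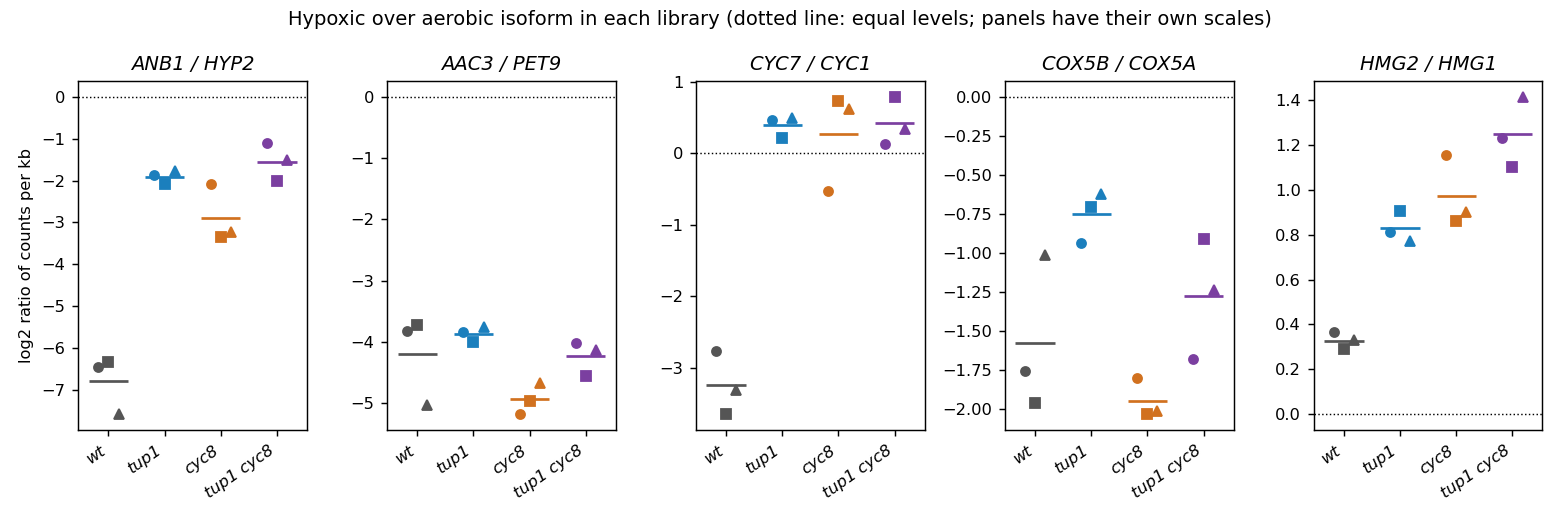
Log2 ratio of counts per kb of the hypoxic over the aerobic isoform in each library (y axis, own scale per panel; circle, square and triangle, replicates 1, 2 and 3; line, mean of the strain; dotted line, equal levels). *CYC7*/*CYC1* is above the line of equal levels in the mutants except *cyc8* replicate 1, *HMG2*/*HMG1* is above it in every library, *ANB1*/*HYP2* is nearer to it in the mutants than in wt, and *COX5B*/*COX5A* and *AAC3*/*PET9* stay below it in every library.

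Among the 5 partners as a list, none was upregulated in *tup1*, 2 were in *cyc8* (*PET9* and *COX5A*) and 3 in *tup1 cyc8* (*PET9*, *COX5A* and *CYC1*). Of all genes tested, 7.27%, 12.5% and 13.9% were upregulated. None of the partners was downregulated (1.43%, 1.91% and 1.88% of all genes). In *tup1* edgeR put 3 higher and 1 lower at an unadjusted p under 0.05 (19.7% and 17.6% of all genes). DESeq2 called 1 higher there, and 2 passed without wt replicate 3. In *cyc8* and *tup1 cyc8*, 0 and 1 were lower at an unadjusted p under 0.05 (24.5% and 28.6% of all genes) and 0 by DESeq2. Scaled by library size alone, 0, 2 and 1 were called higher and 0, 0 and 1 lower in the 3 mutants.

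The 2 heme genes of the set encode the steps of heme synthesis that use oxygen. *HEM13* (YDR044W, chromosome IV, 546642 to 547628, plus strand, 1 coding exon) encodes coproporphyrinogen III oxidase. It was at 312, 299.6 and 151.6 CPM in wt, 428, 405 and 444 in *tup1*, 1387, 1412 and 1546 in the *cyc8* strain and 3134, 1392 and 2144 in *tup1 cyc8*. The strains formed steps: *tup1* lay above wt, *cyc8* above *tup1*, and *tup1 cyc8* overlapped *cyc8* through its replicate 2. The increase in *cyc8* (2.51, SE 0.27, adjusted p = 0.00032) and *tup1 cyc8* (3.14, SE 0.37, adjusted p = 0.00024) passed in edgeR, and the 0.72 in *tup1* (SE 0.24, adjusted p = 0.065) did not. Leaving out wt replicate 3 brought the latter to 0.48, under the fold limit, with an edgeR adjusted p of 0.0057 (0.0057 to 1 over all alternatives).

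*HEM14* (YER014W, chromosome V, 182600 to 184219, plus strand, 1 coding exon) encodes protoporphyrinogen oxidase. It was at 16.8, 13.9 and 15.9 CPM in wt, 29.3, 30.4 and 30.2 in *tup1*, 34.0, 30.5 and 32.2 in the *cyc8* strain and 40.9, 35.9 and 37.1 in *tup1 cyc8*. Replicates were close and no mutant library overlapped wt, and the changes were small. The log2 fold changes were 0.93 (SE 0.10, adjusted p = 0.00029), under the fold limit, in *tup1*, 1.06 (SE 0.12, adjusted p = 0.00035) in the *cyc8* strain and 1.30 (SE 0.11, adjusted p = 3.6e-05) in *tup1 cyc8* by the edgeR test. Both calls were lost when libraries were scaled by size alone (0.71 and 0.83), a scaling that moved the median of all genes from -0.03 to -0.16, -0.38 and -0.50 in the 3 comparisons. The gene overlaps YER014C-A on the other strand, and whether the counting used strand is not given in the sources used here, so its counts may include reads of that gene.

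The other 7 genes of heme metabolism did not pass in any mutant, where 8.71%, 14.4% and 15.8% of all genes did in either direction. They comprise *HEM1*, *HEM2*, *HEM3*, *HEM4*, *HEM12* and *HEM15*, which encode the remaining steps of synthesis, and *HMX1*, which encodes a heme oxygenase that breaks heme down. Their log2 fold changes ran from -0.50 to 0.18 in *tup1*, -0.45 to 0.41 in the *cyc8* strain and -0.23 to 0.37 in *tup1 cyc8*. At an unadjusted p under 0.05 edgeR gave 1 lower (*HMX1*, -0.50) in *tup1*, 1 higher (*HEM15*, 0.41) in *cyc8* and 0 in *tup1 cyc8*, and DESeq2 called 0 in each. Of all genes, 17.6% were lower in *tup1* and 27.5% higher in *cyc8* at that unadjusted limit.

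*HMG2* (YLR450W, chromosome XII, 1032627 to 1035764, plus strand, 1 coding exon), 1 of 2 genes for HMG-CoA reductase, the main control point of sterol synthesis, was the member that passed the test in no mutant. Its CPM was 319, 325 and 229.7 in wt, 284, 335 and 274 in *tup1*, 254, 341 and 342 in the *cyc8* strain and 354, 335 and 382 in *tup1 cyc8*. The first 3 strains overlapped, and *tup1 cyc8* lay above wt by less than the distance between wt libraries. The log2 fold changes were 0.01 (95% interval -0.35 to 0.37), 0.10 (-0.32 to 0.53) and 0.30 (-0.04 to 0.64), with edgeR adjusted p of 0.97, 0.67 and 0.12, and all 3 were below 0 with scaling by library size alone (-0.11, -0.26 and -0.17).

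Its paralogue *HMG1*, used in air, was at 250.1, 268 and 184 CPM in wt, 163, 180 and 162 in *tup1*, 114.9, 189.4 and 184.8 in the *cyc8* strain and 152, 157 and 144 in *tup1 cyc8*. Its log2 fold changes of -0.50, -0.52 and -0.62 were within the fold limit, where those of *HMG2* were 0.01, 0.10 and 0.30. Without wt replicate 3 the *HMG1* changes were -0.63, -0.67 and -0.77 (edgeR adjusted p = 0.0015, 0.057 and 0.00026), also within the limit. The ratio of the paralogues, which does not depend on scaling, was the most precise of the 5 in wt: the log2 ratio of *HMG2* to *HMG1* was 0.33 ± 0.04 in wt, 0.83 ± 0.07 in *tup1*, 0.97 ± 0.16 in the *cyc8* strain and 1.25 ± 0.16 in *tup1 cyc8* (SD, n = 3; exact permutation test, p = 0.00084, adjusted p = 0.0021). *HMG2* was 1.25 times *HMG1* per kb in wt and 1.78, 1.96 and 2.38 times in the mutants, with no mutant library inside the wt range. For all 5 ratios the test covered the 4 strains together, since 3 libraries against 3 cannot give a p below 0.10. At the limit of 0.01 used for genes, *CYC7*/*CYC1* and *COX5B*/*COX5A* would not have passed (exact permutation test, adjusted p = 0.022 and 0.019).

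*AUS1* and *SUT1* act in sterol uptake, which yeast needs when sterols cannot be made for lack of oxygen. *AUS1* (YOR011W, chromosome XV, 349679 to 353863, plus strand, 1 coding exon) encodes an ABC transporter for sterols. It was at 72.9, 74.7 and 69.4 CPM in wt, 227, 195 and 244 in *tup1*, 335, 279.5 and 289 in the *cyc8* strain and 611, 342 and 492 in *tup1 cyc8*. The 4 strains did not overlap one another. Relative to wt the log2 values were 1.60 (SE 0.11, adjusted p = 1.3e-05), 2.06 (SE 0.12, adjusted p = 1.4e-05) and 2.75 (SE 0.20, adjusted p = 1.6e-05) in edgeR.

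*SUT1* (YGL162W, chromosome VII, 198138 to 199037, plus strand, 1 coding exon) encodes a zinc cluster transcription factor that promotes sterol uptake. It was at 34.8, 31.1 and 27.7 CPM in wt, 92.2, 77.1 and 66.1 in *tup1*, 294, 298 and 281 in the *cyc8* strain and 286, 329 and 316 in *tup1 cyc8*. The levels formed 2 blocks, the strains deleted for *CYC8* lying together and far above *tup1*, which itself lay above wt. *SUT1* rose by log2 1.31 (SE 0.15, adjusted p = 0.00032), 3.22 (SE 0.13, adjusted p = 2.5e-06) and 3.33 (SE 0.13, adjusted p = 3.4e-07) by edgeR. Tested against a 2-fold change itself (glmTreat), *SUT1* and *AAC3* were no longer called in *tup1*, *AAC3* and *HEM14* in *cyc8*, and *COX5B* and *HEM14* in *tup1 cyc8*.

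**Figure D4:**
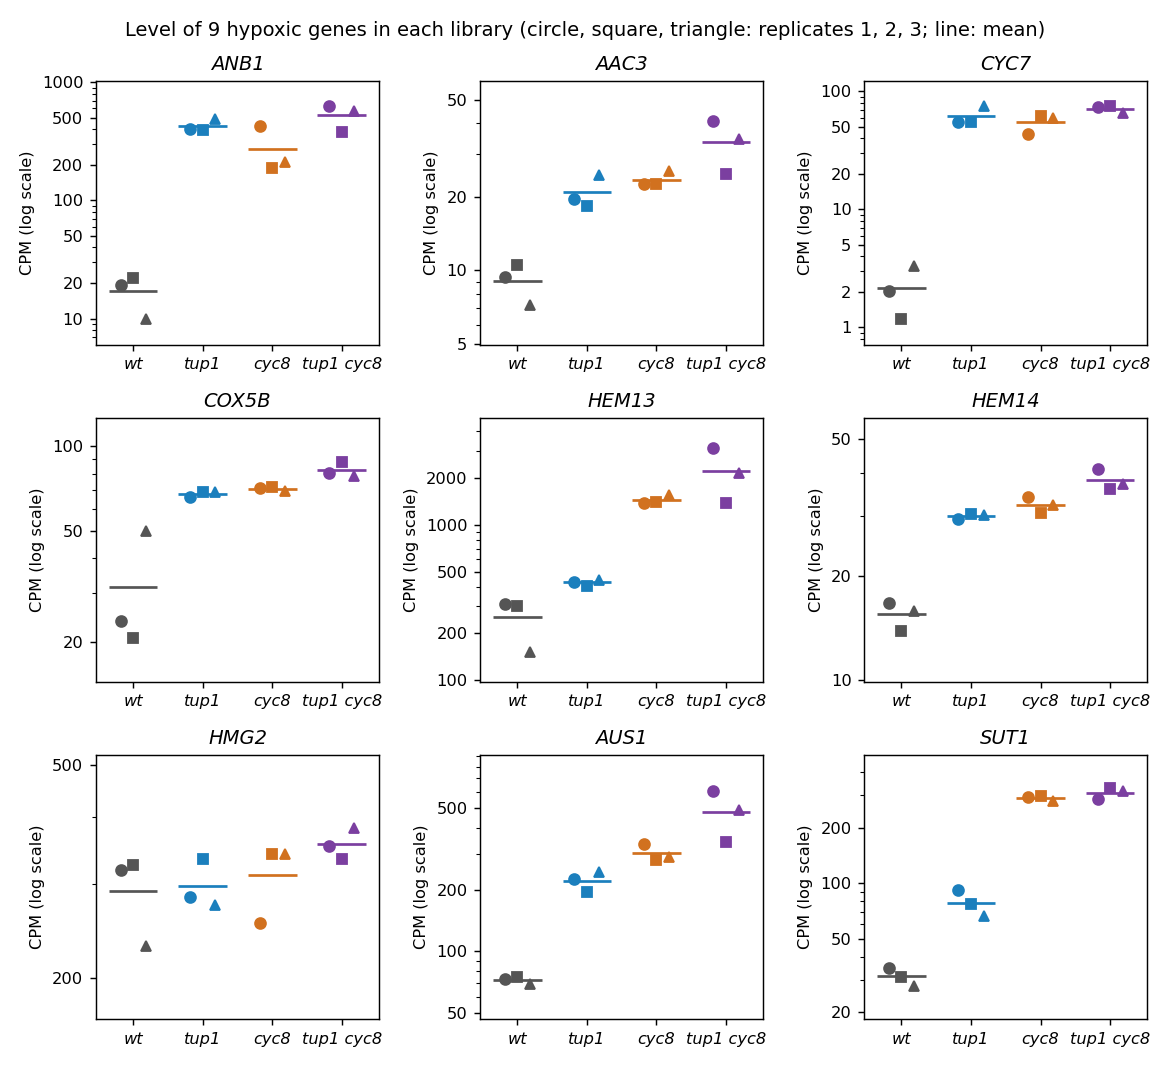
CPM of the 9 hypoxic genes in each library of wt, *tup1*, *cyc8* and *tup1 cyc8* (log y axis, own scale per panel; circle, square and triangle, replicates 1, 2 and 3; line, mean of 3 libraries). *SUT1* and *HEM13* are higher in the strains deleted for *CYC8* than in *tup1*. *CYC7* and *COX5B* differ little between the 3 mutants, *COX5B* lying highest in *tup1 cyc8*, and *HMG2* overlaps wt in *tup1* and *cyc8*.

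Compared per kb of coding sequence, the order of the genes changed with the strain. In wt the mean CPM per kb was 257.6 for *HEM13*, 92.8 for *HMG2*, 68.8 for *COX5B*, 36.1 for *ANB1*, 34.7 for *SUT1*, 17.3 for *AUS1*, 9.80 for *AAC3*, 9.58 for *HEM14* and 6.35 for *CYC7*. *HMG2* and *COX5B*, *COX5B* and *ANB1*, and *ANB1* and *SUT1* overlapped between libraries, and *AAC3*, *HEM14* and *CYC7* all overlapped one another. In *tup1 cyc8* the order was *HEM13* (2252), *ANB1* (1110), *SUT1* (345), *CYC7* (208.5), *COX5B* (180.5), *AUS1* (115), *HMG2* (113.6), *AAC3* (36.2) and *HEM14* (23.5), in which *CYC7* with *COX5B* and *AUS1* with *HMG2* overlapped. On the strain means, *CYC7* had thus passed from the last place to the fourth, and it overlapped neighbours in both strains.

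The mutants were then compared directly in a fit of all 12 libraries (adjusted p of at most 0.01, with no fold limit). *HEM13* and *SUT1* were higher in *cyc8* than in *tup1*, by log2 1.77 (SE 0.29, adjusted p = 0.00088) and 1.89 (SE 0.13, adjusted p = 1.4e-06) in edgeR. Of all genes, 9.77% were higher and 5.00% lower in this comparison (14.8% in either direction). For the other 7 genes the difference between the single mutants did not pass, and its 95% interval was -0.65 to 0.30 for *CYC7*, -0.11 to 0.32 for *HEM14*, -0.46 to 0.58 for *COX5B* and -1.33 to 0.06 for *ANB1*. The *ANB1* difference of -0.63 was -1.09, and passed, without *cyc8* replicate 1.

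Deleting *TUP1* in addition to *CYC8* changed none of the 9 genes past the limit, where 3.89% of all genes differed between *tup1 cyc8* and *cyc8*, 3.09% being higher and 0.801% lower. The 9 differences ran from 0.09 for *SUT1* to 0.94 for *ANB1*. Of the 9 genes 5 were higher at an unadjusted p under 0.05 in edgeR, as were 14.7% of all genes, DESeq2 called 1 (*AUS1*), and *ANB1* passed at 1.37 without *cyc8* replicate 1 as *AUS1* did at 0.85 without *tup1 cyc8* replicate 2.

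Against *tup1*, the *tup1 cyc8* strain was higher for *HEM13* (2.38, SE 0.29, adjusted p = 0.00012), *SUT1* (1.98, SE 0.14, adjusted p = 1.0e-06) and *AUS1* (1.12, SE 0.18, adjusted p = 0.00075) in edgeR, and 9.26% of all genes were higher and 4.62% lower (13.9% in either direction). *AAC3*, at 0.67 (adjusted p = 0.017), passed when the 6 libraries of these strains were fitted with their replicate number as a block (0.64, adjusted p = 0.0082; over its alternatives the adjusted p ran from 0.0051 to 0.11). The intervals of the *ANB1* and *CYC7* differences were -0.39 to 1.00 and -0.27 to 0.68.

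The change in *tup1 cyc8* was also set beside the sum of the single mutant changes on the log2 scale. It was smaller than the sum for 4 genes at an adjusted p of at most 0.01, as for 6.79% of all genes, and larger for none (2.32% of all genes, or 9.11% in either direction). At an unadjusted p under 0.05 edgeR had 7 smaller (17.1% of all genes) and 0 larger (12.7%), DESeq2 called 5 smaller and 0 larger, and scaling by library size alone left 3 smaller. *CYC7* increased by 5.03 where the sum was 9.47 (difference -4.44, SE 0.35, adjusted p = 1.3e-06), and *ANB1* by 4.94 where the sum was 8.64 (difference -3.70, SE 0.47, adjusted p = 0.00011), edgeR fit of 12 libraries. The difference was -1.24 for *SUT1*, with a sum of 4.55 (adjusted p = 0.00046 by edgeR), and -0.71 for *HEM14*, with a sum of 2.00 (adjusted p = 0.0038). The *HEM14* call was lost in 5 of the 12 edgeR fits with 1 library fewer, where the adjusted p rose to at most 0.014, and with scaling by library size alone. *AUS1*, at -0.94, passed by DESeq2 (-0.95) and without *tup1 cyc8* replicate 1 (-1.16). *COX5B*, at -0.89, passed without wt replicate 3 (-1.39). *HEM13* differed from its sum of 3.25 by -0.13 (95% interval -0.98 to 0.73), and this difference was above 0 without wt replicate 3 (0.14) or without *tup1 cyc8* replicate 2 (0.10). All values for *tup1 cyc8* are from the strain in which *CYC8* reads remained.

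**Figure D5:**
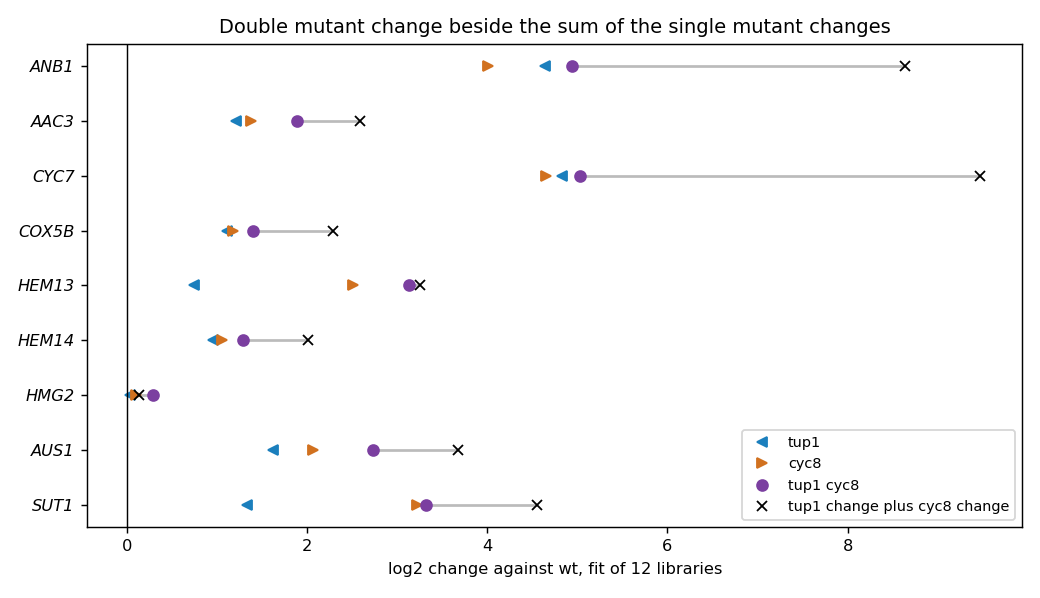
Log2 change of the 9 hypoxic genes against wt (x axis, fit of 12 libraries) in *tup1*, *cyc8* and *tup1 cyc8*, and the sum of the single mutant changes (crosses); grey lines join the *tup1 cyc8* value to that sum. The distance is widest for *CYC7* and *ANB1*, at -4.44 and -3.70, and narrowest for *HEM13* and *HMG2*.

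The regulators of these genes were described from a list of 13. Of these, 1 was upregulated in *tup1*, 4 in the *cyc8* strain and 4 in *tup1 cyc8*, beside 7.27%, 12.5% and 13.9% of all genes tested. None was downregulated in edgeR (1.43%, 1.91% and 1.88% of all genes) or DESeq2. At an unadjusted p under 0.05 edgeR had 3, 0 and 0 lower (17.6%, 24.5% and 28.6% of all genes). The median log2 fold changes were -0.21, 0.24 and 0.42. Scaled by library size alone, 0, 2 and 2 were upregulated. *ROX1* itself was at 49.7, 49.6 and 47.1 CPM in wt, 102.9, 91.0 and 71.3 in *tup1*, 294, 224 and 196 in the *cyc8* strain and 162, 169 and 103.9 in *tup1 cyc8*. Its mRNA was thus not lower in any mutant library than in wt, and the change passed in *cyc8* (2.29) and *tup1 cyc8* (1.58) but was under the fold limit in *tup1* (0.84, SE 0.14, edgeR adjusted p = 0.0030). The *tup1 cyc8* change of *ROX1* differed from the sum of the single changes by -1.57 (edgeR adjusted p = 0.0018).

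*UPC2*, which encodes an activator of sterol genes, was at 63.8, 56.8 and 40.9 CPM in wt and at 186, 233 and 254 in *cyc8*, with log2 fold changes of 0.88, 2.06 and 2.09 of which the last 2 passed. *HAP4*, the regulatory subunit of the activator of respiratory genes, had log2 fold changes of 0.61, 1.29 and 1.46, the last 2 passing, and *SUT2*, a paralogue of *SUT1*, rose by 1.10, 1.24 and 1.28, all passing. *MOT3*, which encodes a second repressor of hypoxic genes, had log2 fold changes of -0.37, 0.48 and 0.50, and *HAP1* had -0.86, -0.05 and -0.06, all within the fold limit. *HAP1* in *tup1* had an edgeR adjusted p of 0.0023, and an mRNA level does not show whether Hap1p works in these strains. The remaining regulators, *IXR1*, *ECM22*, *HAP2*, *HAP3*, *HAP5*, *MGA2* and *SPT23*, were not called in any mutant.

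Of 8 genes listed as other oxygen-repressed genes, 4 were upregulated in *tup1*, 5 in the *cyc8* strain and 5 in *tup1 cyc8*. The shares of all genes tested were 7.27%, 12.5% and 13.9%. Whether oxygen represses each listed gene was not measured here, and the list was chosen with earlier results of these data known. None was downregulated in edgeR (1.43%, 1.91% and 1.88% of all genes) or DESeq2. At an unadjusted p under 0.05 edgeR had 1, 1 and 0 lower (17.6%, 24.5% and 28.6% of all genes). *PDR11*, which encodes the transporter that acts beside Aus1p, was at 39.0, 37.6 and 32.0 CPM in wt and 315, 234 and 293 in *tup1 cyc8*, with log2 fold changes of 2.01, 1.90 and 2.97. *DAN1* and *TIR1*, cell wall mannoprotein genes of anaerobic cells, changed by 5.76, 7.87 and 9.07 and by 2.88, 5.80 and 6.40, and *FRD1*, a fumarate reductase gene, by 1.12, 1.57 and 1.77. In *TIR1* 17% of the sequence is repeated elsewhere in the genome. *FET4*, a low-affinity iron transporter gene, passed at 1.57 in *cyc8* and 1.33 in *tup1 cyc8*, while the 0.36 in *tup1* did not pass and was 0.05 without wt replicate 3. *OLE1* (fatty acid desaturase), *ERG11* (lanosterol demethylase) and *OSM1* (the second fumarate reductase) passed in none. For *OLE1* the *cyc8* libraries differed widely, at 698, 4320 and 5125 CPM.

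The genes whose levels followed those of the members most closely over the 12 libraries are given as a description, by Pearson's r of log2(CPM + 1), and the 12 points share the same 4 strains. Values for *HXT15*, *HXT17* and *PAU4*, members of multigene families, are uncertain where copies share reads. The closest genes were *HXT15* and *PDR10* for *ANB1* (both 0.980), *AUS1* (0.981) and *PAU4* (0.976) for *AAC3*, *EXG1* (0.992) and *HMS1* (0.988) for *CYC7*, and *PNC1* and *HXK1* for *COX5B* (both 0.986). For *HEM13* they were YDL241W (0.976) and *CMR3* (0.971), for *HEM14* *DSF1* (0.992) and *VBA5* (0.990), for *AUS1* *HXT17* (0.991) and *PAU4* (0.988), and for *SUT1* *NRG1* (0.995) and *SCW10* (0.991). *HMG2* had no partner as close, with *CDD1* at 0.945 and *RPS0B* at 0.862. Among the members, *AAC3* with *AUS1* was the closest pair, while the values for *HMG2* with the other 8 ran from 0.114 to 0.60.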

How the data were processed

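RNA of 12 cultures (3 biological replicates of wt, *tup1*, *cyc8* and *tup1 cyc8*) was analysed from the raw counts per gene that the authors deposited, 1 table per mutant with the same 3 wt libraries. The authors trimmed reads with Trimmomatic 0.36, mapped them with STAR 2.5.2b to the S288c genome from ENSEMBL, whose release is not given in the sources used here, and counted unique hits with featureCounts of Subread 1.5.2. The strand setting is not given there either. Reads that hit several genes are thus missing from near-identical copies. The deposited normalized counts were not used. A line without a gene name, with 0.0647% to 0.34% of the counts of each library, was left out.

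For mutant against wt, the 6 libraries concerned were fitted with edgeR 4.0.16 (R 4.3.3) after filterByExpr and TMM scaling, over 5927, 5954 and 5942 genes, and mutants were set against each other, and the departure from additivity tested, in a fit of 12 libraries over 5995 genes. P-values were adjusted by Benjamini-Hochberg over all genes tested. Isoform ratios are log2 ratios of counts plus 0.5 per kb of coding sequence, tested over all 369600 assignments of the libraries to strains, for which the smallest p is 6.5e-05. The scripts were tested on simulated data. DESeq2 1.42.0, glmTreat, other scalings and filters, the replicate block and leaving out each library were the alternatives. A separate fit for *tup1* with *tup1 cyc8* (6 libraries), the 500-base window, the consensus search, and the other lists under DESeq2, library size scaling and without wt replicate 3 were added after the data were seen.

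Replicate numbers come from the labels, which do not say what they share. Libraries of *tup1* and *tup1 cyc8* with the same number deviated together from their strain means (r = 0.189, 0.334 and 0.223 over genes). These numbers were therefore taken as a possible pairing, judged from the same data, which the main fit of 12 libraries did not use. In the other pairs of strains at least 1 of the 3 values was under 0.1. The largest value for the same number was 0.344, for replicate 1 of wt with that of *tup1*.

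Sequences and coordinates are from the RefSeq R64 genome, matched to 6046 of the 6400 gene names, and sequences were searched on both strands. The members and all gene lists were chosen with earlier results of these data known. All 9 members, their partners and the genes of the lists were to be named, with the 2 genes most correlated with each member.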

Additional observations from a re-analysis of the deposited data

Results flagged for a closer look

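Of the 9 genes, 4 were marked because the effect of deleting *TUP1* differed with the state of *CYC8*, by the test of that difference in the fit of 12 libraries (edgeR, adjusted p of at most 0.01, reached in the same direction by 6.79% of all genes). The log2 change in *tup1 cyc8* was below the sum of the single mutant changes by -3.70 for *ANB1*, -4.44 for *CYC7*, -0.71 for *HEM14* and -1.24 for *SUT1*. For *CYC7* the reference is 36, 21 and 61 counts in the wt libraries. Leaving out 1 library moved the values to between -3.93 and -3.26 for *ANB1*, -4.88 and -4.14 for *CYC7*, -0.78 and -0.64 for *HEM14*, and -1.35 and -1.11 for *SUT1*. The *CYC8* reads that remained in *tup1 cyc8* bear on these values, and their part in them was not tested.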

How the results depend on the processing

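With the replicate number as a block, 5, 7 and 8 members were called against wt, 2, 0 and 3 differed in the direct comparisons (*cyc8* with *tup1*, *tup1 cyc8* with *cyc8*, *tup1 cyc8* with *tup1*) and 4 departed from additivity, as without it. The 6 *tup1* and *tup1 cyc8* libraries fitted with the block gave 4 in place of 3, with *AAC3* added. No other call changed in a block fit. The count in *tup1* was 3 by glmTreat. That for *tup1 cyc8* against *cyc8* was 1 by DESeq2, 1 at an adjusted p of 0.05 and 0 to 1 without 1 library, and that against *tup1* was 5 at an adjusted p of 0.05. With a pseudocount of 1 CPM, the *CYC7*/*CYC1* ratio rose by 3.11 in *tup1* and 3.13 in *tup1 cyc8* in place of 3.63 and 3.65. Without 1 library in turn, the *AAC3*/*PET9* ratio changed by -0.087 to 0.56 in *tup1* and -0.46 to 0.19 in *tup1 cyc8*, and the adjusted permutation p ran from 0.0038 to 0.19 for this ratio and from 0.0094 to 0.066 for *COX5B*/*COX5A*, whose call was lost in 3 of the fits, and the cause was not tested. Directions reversed for *HMG2* against wt with library size scaling (-0.11, -0.26 and -0.17), without wt replicate 3 (-0.12 in *tup1*, -0.044 in *cyc8*) and without *tup1* replicate 2 (-0.09), with ranges over the fits without 1 library of -0.12 to 0.099 in *tup1* and -0.044 to 0.214 in *cyc8*. *HMG2* in *cyc8* against *tup1* ran from -0.0074 to 0.199 in such fits, and the departure of *HEM13* from additivity from -0.474 to 0.14. Library size scaling also reversed *AAC3* (-0.035), *COX5B* (-0.149), *HEM14* (-0.0993) and *HMG2* (-0.15) in *cyc8* against *tup1*, *SUT1* (-0.019) in *tup1 cyc8* against *cyc8*, and *ANB1* (-0.0187), *CYC7* (-0.107), *COX5B* (-0.0376) and *HMG2* (-0.0629) in *tup1 cyc8* against *tup1*, none of which had passed. Of the recomputed log2 differences of single members, 568 without a library and 477 under the other settings kept direction and call, while 20 and 24 gained or lost a call and 6 and 12 reversed. The wt level of *CYC7* rests on 21 to 61 counts a library.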
